A study of Mus musculus with 6 samples.

Results

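The erythroid genes described here are 39 genes for globin chains, haem synthesis, the red cell membrane and skeleton, erythropoietin and transferrin receptors, and enzymes of the red cell. They were chosen by name, and each was followed through all of its probes on an Illumina mouse bead array. Probes were named for 36 of the 39 genes, against 17711 named genes on the array, and for them there were 67 probes of 46632 in all; Trfr2 was found under its current symbol, Tfr2, and Hbb-b1, Ahsp and Epb41 were not analysed here. A probe was kept where its detection p, which is 1 minus the deposited detection score, was under 0.05 on 3 or more arrays. This kept 38 of the 67 probes and 26 of the 36 genes, against 16122 probes and 8946 genes over the whole array.

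RNA came from sorted megakaryocyte progenitors, the platelet-forming lineage of the bone marrow, taken at 3 to 4 months of age from mice of mixed 129SVxC57Bl/6 strain. All mice carried the TGPF4-CRE transgene, in which the promoter of the megakaryocyte gene Pf4 drives Cre recombinase. One group was Scl wt/wt (wild-type, 3 arrays), and the other was Scl fl/fl (3 arrays), in whose progenitors the design text describes excision of Scl as complete (Scl-deleted below). Scl is the gene now named Tal1. Whether each array stands for 1 animal or a pool is not in the labels, so the p-values rest on the spread among these samples, part of which may be technical.

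Red cell precursors make haemoglobin from alpha and beta globin chains and haem, which is built by a chain of enzymes that starts and ends in the mitochondrion. They take up iron as transferrin through the transferrin receptor, depend on the erythropoietin receptor for survival, and carry a spectrin skeleton tied to the membrane by ankyrin and band 3. Megakaryocyte and erythroid cells share a precursor, and the Tal1 protein, in a complex with GATA1, LMO2 and LDB1, binds many erythroid genes.

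The sorted cells had strong signals for several megakaryocyte genes. Ppbp, Vwf, Gp5 and Pf4 lay between 12.13 and 13.87 (background-corrected, quantile-normalized log2 intensity, the scale of every level below) on all 6 arrays, while the lowest signal detected on an array was 5.27 to 5.40. Of the other megakaryocyte genes with a probe, Cd9 lay between 12.42 and 13.11. Itga2b, F2rl2, Gp9 and Selp lay between 7.33 and 12.37 and Itgb3 between 6.11 and 7.47, and Gp6 was detected on 2 arrays. The brightest probe of Mpo, a neutrophil and promyelocyte gene, lay between 11.29 and 12.59. Between 15183 and 16338 probes per array were detected. Tal1 read 11.22, 9.80 and 11.47 on the Scl-deleted arrays and 12.83, 13.28 and 13.29 on the wild-type arrays, by a probe whose place relative to the deletion is not known here. In the comparison of genotypes, 110 of the 8946 tested genes passed an adjusted p of 0.05, or 1.23%.

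None of the 26 tested erythroid genes passed that threshold (limma, 0 called), and 5 had an unadjusted p under 0.05, where 16% of all tested genes did. The genotypes did not overlap for 6 of the 26 genes, against 19.6% of all tested genes. Hba-a1, Hbb-bt and Gypc (3 of 26) lay above wild-type on every Scl-deleted array, as did 11.3% of all tested genes, and Car2, Aqp1 and Tfrc (3 of 26) lay below, as did 8.35%. By mean, 12 genes were higher with Scl deleted and 14 lower (54.3% of all tested genes were higher), with a median log2 fold change of -0.03 against 0.03 over all tested genes. The adult globins had the highest log2 fold changes of the 26 genes and Car2 the lowest. For 19 of the 26 genes the log2 fold change lay between -0.30 and 0.30. The median size of the log2 fold change, regardless of sign, was 0.21 over the 26 genes and 0.17 over all tested genes. The erythroid genes were therefore no closer to 0 than the array as a whole. In RNA from a whole sorted population, a change in the number of erythroid cells and a change in RNA per cell cannot be told apart.

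**Figure D1:**
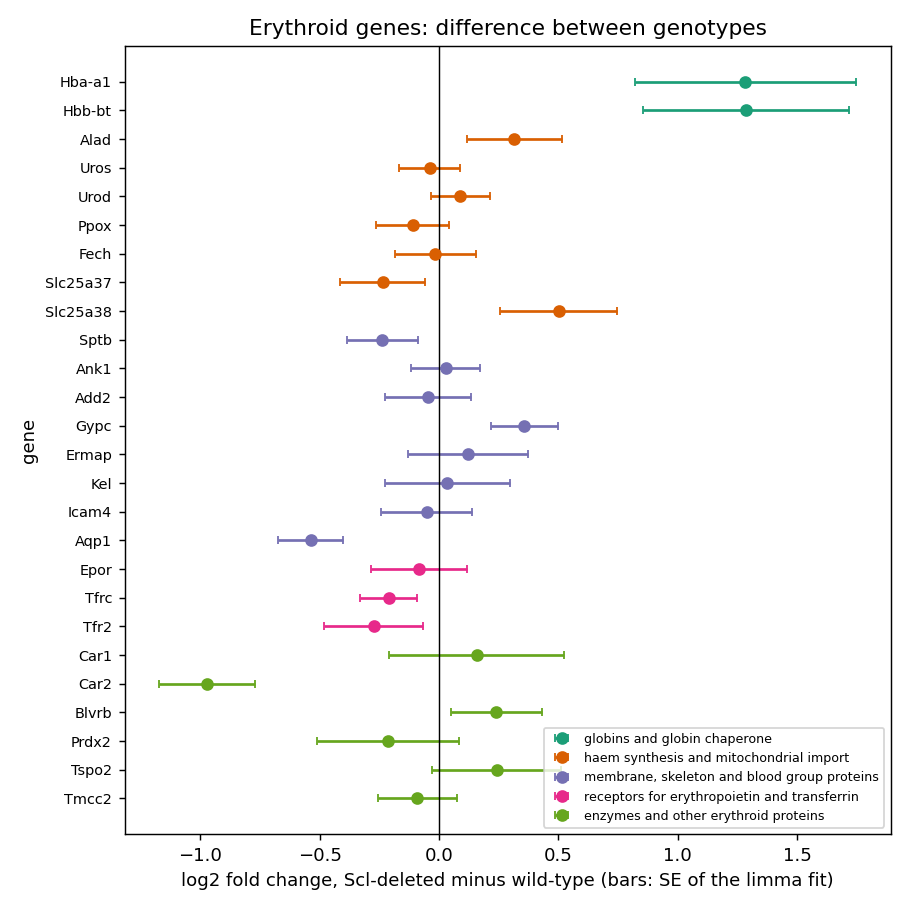
Log2 fold change of each of the 26 tested erythroid genes, Scl-deleted minus wild-type (horizontal axis), with the standard error of the limma fit as bars, coloured by role. The adult globins Hba-a1 and Hbb-bt stand at 1.28 and 1.29, Car2 stands at -0.97, and 19 of the 26 genes lie between -0.30 and 0.30.

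The adult globins were higher in Scl-deleted cells on the level of means, most of all on 1 array. Hba-a1, which encodes an adult alpha globin chain and lies on chromosome 11, was at 8.28, 7.87 and 8.57 on wild-type arrays 1, 2 and 3 and at 8.96, 10.76 and 8.85 on Scl-deleted arrays 1, 2 and 3. All 3 Scl-deleted values lay above all 3 wild-type values, with array 2 far above the other two. The means were 8.24 ± 0.35 and 9.52 ± 1.08 (SD, n = 3 each), a log2 fold change of 1.28 ± 0.46 (SE), 2.43-fold, which did not pass (limma adjusted p = 0.242). Hbb-bt, an adult beta globin gene on chromosome 7, was at 8.90, 8.69 and 8.97 on the wild-type arrays and at 9.51, 11.34 and 9.57 on the Scl-deleted arrays. Its groups were likewise apart, and its values had the same shape across arrays as those of Hba-a1. The means were 8.85 ± 0.14 and 10.14 ± 1.04 (SD, n = 3 each), a log2 fold change of 1.29 ± 0.43 (SE), 2.44-fold, which did not pass (limma adjusted p = 0.214). The 95% intervals of the log2 fold change ran from 0.23 to 2.34 for Hba-a1 and from 0.30 to 2.27 for Hbb-bt.

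Scl-deleted array 2 enlarged both the globin difference and its spread. Hba-a1 was 3.63-fold and Hbb-bt 3.49-fold higher on that array than the mean of the other Scl-deleted arrays, and by this difference they ranked 9 and 10 of 8946 genes. Without Scl-deleted array 2 the log2 fold changes fell to 0.66 ± 0.21 and 0.69 ± 0.14 (SE; limma adjusted p = 0.340 and 0.145). Xist, the X chromosome silencing RNA expressed in females, was at 10.53, 10.89 and 9.13 on the wild-type arrays and at 5.21, 5.80 and 10.52 on the Scl-deleted arrays, so its level differed between arrays while the genotypes overlapped (limma adjusted p = 0.283). Of the Y-linked genes, Eif2s3y was detected on every array, at 6.61, 7.06 and 7.91 (wild-type) and 8.49, 8.13 and 7.56 (Scl-deleted). Uty was detected on 3 wild-type and 2 Scl-deleted arrays, and Kdm5d on 2 arrays. Which sexes each array stands for was not tested. With the Xist level as a covariate the log2 fold changes were 0.73 for Hba-a1 and 0.88 for Hbb-bt (limma adjusted p = 0.768 and 0.715).

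Further beta globin probes were also highest on Scl-deleted array 2, but differed in whether the genotypes overlapped. Of the 5 kept Hbb-bt probes, the brightest is the one given above. Dimmer ones had log2 fold changes of 1.31 and 1.28 with no overlap between genotypes, and another had 0.92 with overlap, since Scl-deleted array 1 was at 8.51 and the wild-type arrays at 8.54 to 8.66. The dimmest, detected on 3 arrays, had 0.32. Hbb-bs, the partner of Hbb-bt in the same beta globin haplotype and not among the 39 genes, had 5 kept probes. The 4 detected on every array had log2 fold changes of 0.65 to 1.29, and the genotypes overlapped for 2 of them. On the probe with 0.65, Scl-deleted array 1 was at 7.66, below the wild-type arrays at 8.32 to 8.54, and Scl-deleted array 2 was at 10.81. The other probe, named after its values were seen, was detected on no wild-type array and read 5.95, 6.92 and 6.10 on the Scl-deleted arrays, at least 2.01-fold higher. It was kept through the Scl-deleted arrays alone, so it had to differ and is given as a level only. The bound sets the mean of the Scl-deleted arrays against the higher, on each wild-type array, of the lowest detected signal and the probe's own. The adult alpha globin genes are near-identical copies of each other, and so are the adult beta globin genes, so a probe's signal may hold RNA of another copy of the same type. The probe of Hbb-b2, a beta globin gene of the other haplotype, was not detected on any array.

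The embryonic globins were at background throughout. Hba-x, the zeta-like embryonic alpha globin gene, lay between 4.68 and 4.92 on the 6 arrays, and the 2 probes of Hbb-bh1, an embryonic beta-like gene, lay between 4.72 and 5.15. None of these 3 probes was detected on any array.

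**Figure D2:**
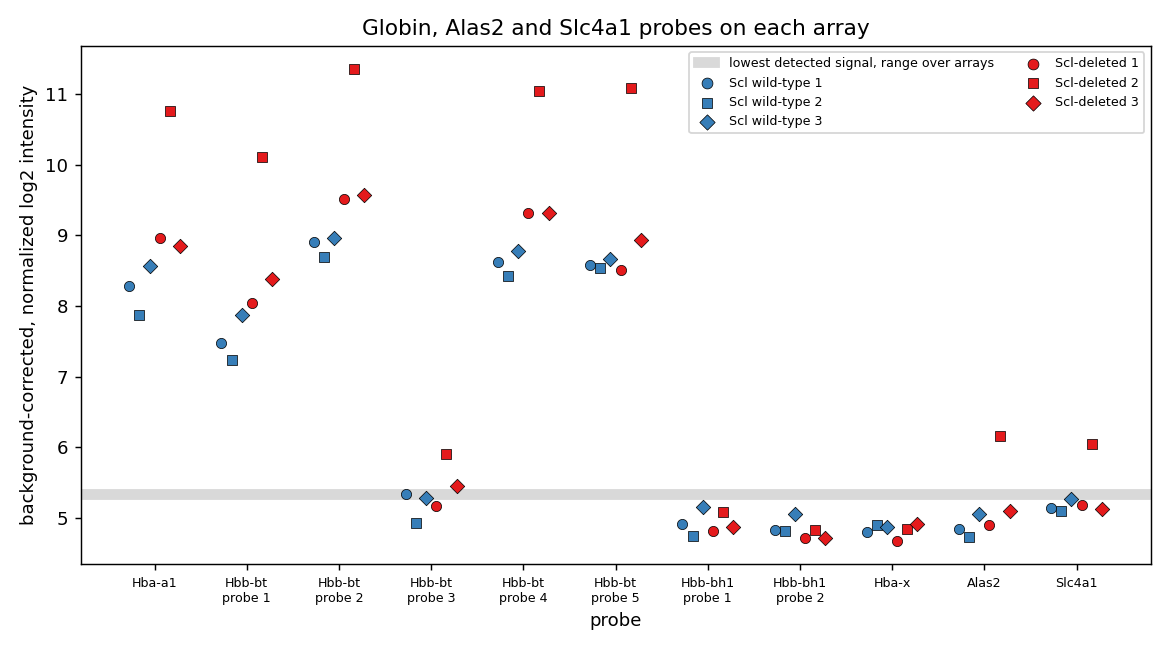
Log2 intensity (vertical axis) of the kept Hba-a1 and Hbb-bt probes and of all probes of Hbb-bh1, Hba-x, Alas2 and Slc4a1 on each of the 6 arrays, blue for wild-type and red for Scl-deleted, with the marker giving the replicate number. The grey band is the range over arrays of the lowest detected signal, 5.27 to 5.40; Scl-deleted array 2 (red squares) is highest for every kept globin probe and for Alas2 and Slc4a1.

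The promoters of 5 erythroid genes are shown because the results turn on these genes: the adult globins, whose values had the same shape across arrays, Alas2 and Slc25a38, which shared their high array, and Aqp1, whose brighter probe was lower on every Scl-deleted array without passing the test. The promoter of Car2 was not analysed here. Each line gives the 250 bases before the transcription start from RefSeq, build GRCm38.p6, in the direction of the gene. Capitals mark matches on either strand to AGATAA or TGATAA, which GATA factors bind, to CACCC, the core of boxes bound by KLF1, and to the E-boxes CAGCTG and CAGATG, which the Tal1 protein and its partners bind. Where matches adjoin or overlap they form 1 run of capitals.
Hba-a1, chr11:32283422-32283671, plus strand: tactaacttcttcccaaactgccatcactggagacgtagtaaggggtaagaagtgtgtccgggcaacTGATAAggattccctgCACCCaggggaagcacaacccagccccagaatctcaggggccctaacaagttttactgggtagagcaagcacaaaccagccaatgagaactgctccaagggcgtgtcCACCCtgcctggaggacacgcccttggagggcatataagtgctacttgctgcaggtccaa
Hbb-bt, chr7:103813924-103814173, minus strand: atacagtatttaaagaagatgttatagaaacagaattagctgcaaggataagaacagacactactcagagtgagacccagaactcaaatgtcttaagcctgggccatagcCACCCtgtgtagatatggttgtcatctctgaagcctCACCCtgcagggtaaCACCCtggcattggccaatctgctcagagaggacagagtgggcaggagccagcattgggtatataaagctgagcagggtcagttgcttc
Alas2, chrX:150547167-150547416, plus strand: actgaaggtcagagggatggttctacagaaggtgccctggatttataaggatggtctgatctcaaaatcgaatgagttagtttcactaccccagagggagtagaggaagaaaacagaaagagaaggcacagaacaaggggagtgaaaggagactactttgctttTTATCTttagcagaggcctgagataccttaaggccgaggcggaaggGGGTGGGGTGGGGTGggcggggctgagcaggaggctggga
Slc25a38, chr9:120110132-120110381, plus strand: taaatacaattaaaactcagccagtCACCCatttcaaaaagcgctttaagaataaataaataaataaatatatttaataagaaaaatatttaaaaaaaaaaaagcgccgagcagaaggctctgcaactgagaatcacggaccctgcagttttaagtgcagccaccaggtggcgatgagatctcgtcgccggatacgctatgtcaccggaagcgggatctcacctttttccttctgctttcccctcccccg
Aqp1, chr6:55336049-55336298, plus strand: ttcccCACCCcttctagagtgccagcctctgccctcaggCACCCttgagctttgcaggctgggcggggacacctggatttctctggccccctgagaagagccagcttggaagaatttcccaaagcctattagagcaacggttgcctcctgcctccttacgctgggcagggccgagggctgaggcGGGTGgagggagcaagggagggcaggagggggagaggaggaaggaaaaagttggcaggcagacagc

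The Hba-a1 window held 1 TGATAA and 2 CACCC matches, that of Hbb-bt 3 CACCC, that of Alas2 1 AGATAA and 3 CACCC, that of Slc25a38 1 CACCC and that of Aqp1 3 CACCC, and none of the 5 held either E-box. The promoter table had entries for 28 of the 39 genes. AGATAA or TGATAA occurred in 15 of the 28 (53.6%), against 18.8% of 27025 genes with a window, and CACCC in 23 (82.1%), against 54.5%. The E-boxes occurred in 5 (17.9%), against 28.2%. A gene with several starts was counted once, where any window matched. These are matches of letters and show no binding.

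Genes of haem synthesis and mitochondrial import went in both directions: among 7 tested, 3 were higher and 4 lower by mean, none passed, and the median log2 fold change was -0.01. Alas2, the erythroid form of the first and rate-limiting enzyme, which lies on the X chromosome, was not kept. Its levels were 4.85, 4.73 and 5.06 on the wild-type arrays and 4.91, 6.17 and 5.11 on the Scl-deleted arrays, and it was detected on Scl-deleted array 2 alone. Alad, which joins aminolevulinate molecules in the next step, was at 12.01, 12.11 and 12.00 in wild-type cells and at 12.09, 12.83 and 12.15 in Scl-deleted cells, which gave 0.32 ± 0.20 (log2 fold change, SE; limma, adjusted p = 0.475). The genotypes overlapped, and Scl-deleted array 2 was the high one. Without that array the log2 fold change of Alad was 0.08.

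Slc25a38, the mitochondrial carrier that brings in glycine for haem synthesis, was at 7.98, 7.77 and 8.23 in wild-type cells and at 8.19, 9.07 and 8.21 in Scl-deleted cells, again highest on Scl-deleted array 2. The log2 fold change of Slc25a38 was 0.50 ± 0.25 (SE; limma, adjusted p = 0.355) and 0.21 without that array, and its dimmer kept probe had 0.24. Slc25a37 (mitoferrin 1), the mitochondrial iron importer, had -0.24 and no high value on that array, with 7.96, 7.79 and 7.77 in Scl-deleted cells against 7.90, 7.87 and 8.46 in wild-type cells. The later enzymes stayed close between genotypes: Urod, uroporphyrinogen decarboxylase, had 0.09, with a 95% interval from -0.20 to 0.37, and Uros, uroporphyrinogen III synthase, had -0.04, from -0.33 to 0.25. Uros had 2 dimmer kept probes at -0.36 and -0.53 whose genotypes did not overlap, as in 18% of all kept probes, and neither passed with every probe tested (limma adjusted p = 0.354 and 0.327, with 0.453% of 16122 probes called). Ppox, protoporphyrinogen oxidase, had -0.11, and Fech, ferrochelatase, which inserts iron into the ring, had -0.01 from a dim probe detected on 4 arrays. The 3 probes of Cpox, coproporphyrinogen oxidase, were not detected on any array.

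Among membrane, skeleton and blood group genes, 4 of 8 tested genes were higher and 4 lower by mean, none passed, and the median log2 fold change was -0.01. Aqp1, the water channel of the red cell, was at 12.26, 12.19 and 12.49 in wild-type cells and at 11.86, 11.63 and 11.84 in Scl-deleted cells. Every Scl-deleted value lay below every wild-type value. The means were 12.31 ± 0.16 and 11.78 ± 0.13 (SD, n = 3 each), a log2 fold change of -0.54 ± 0.14 (SE), 1.45-fold lower, which did not pass (limma adjusted p = 0.134). eBayes with its trend and robust options called it (adjusted p = 0.0358), as did array weights (adjusted p = 0.0439), with 0.528 the highest over 17 alternatives. Those settings called 155 and 913 of the 8946 tested genes. The dimmer Aqp1 probe had -0.07 with overlapping genotypes, its highest value being 9.92 on wild-type array 3, and the mean of both probes had -0.30 (adjusted p = 0.528).

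Gypc, which encodes glycophorin C, a membrane anchor of the skeleton, was at 9.81, 9.72 and 9.63 in wild-type cells and at 9.88, 10.27 and 10.09 in Scl-deleted cells. The genotypes were apart by a small gap, 0.36 ± 0.14 in log2 fold change (SE; adjusted p by limma 0.270). Sptb, beta spectrin, had -0.24 ± 0.15 (SE), with Scl-deleted array 3 lowest at 9.11. Ank1, ankyrin 1, had 0.03, with a 95% interval from -0.30 to 0.36, and Icam4, the Landsteiner-Wiener blood group protein, had -0.05 and 0.03 on its 2 kept probes. Ermap, the Scianna blood group protein, Kel, the Kell protein, and Add2, beta adducin, had 0.12, 0.03 and -0.05 from dim probes detected on 5, 3 and 4 arrays.

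Several genes for the mature red cell membrane were at background. Slc4a1, band 3, the anion exchanger to which ankyrin binds, was at 5.14, 5.11 and 5.27 in wild-type cells and at 5.19, 6.05 and 5.13 in Scl-deleted cells, and like Alas2 was detected on Scl-deleted array 2 alone. Rhag, the Rh-associated glycoprotein, had 3 probes, of which 1 was detected on wild-type array 2 alone, at 5.54. Epb42, a protein that links band 3 to the skeleton, Rhd, the Rh protein, and Cldn13, a claudin, were not detected on any array, nor was Trim10, a tripartite motif protein. In all, 10 genes with a probe were not kept, 7 of them detected on no array and 3 on 1 array. The probe nearest to the detection limit on the side left out was a dimmer Ank1 probe detected on 2 arrays, between 4.91 and 5.60; on the side kept, detected on 3 arrays, were Kel between 4.99 and 5.88, Tspo2 between 4.84 and 5.92 and the dimmest Hbb-bt probe.

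The 3 receptor genes were lower by mean, none passed, and their median log2 fold change was -0.21. Tfrc, the transferrin receptor through which dividing and haem-making cells take up iron, was at 9.70, 9.91 and 9.77 in wild-type cells and at 9.56, 9.64 and 9.56 in Scl-deleted cells. The genotypes did not overlap, the log2 fold change was -0.21 ± 0.12 (SE), and it did not pass (limma adjusted p = 0.425). Tfr2, transferrin receptor 2, a partner of the erythropoietin receptor, had -0.27 ± 0.21 (SE) on its brighter probe and 0.44 on its dimmer one, so its probes disagreed in direction and the mean of both was 0.08. Epor, the erythropoietin receptor, had -0.08 ± 0.20 (SE) and 0.15 on its 2 probes, at 7.09, 7.20 and 7.74 in wild-type cells and 7.06, 7.52 and 7.20 in Scl-deleted cells on the brighter one, and its mean over probes was 0.03.

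The carbonic anhydrases, which hydrate carbon dioxide, differed from each other. Car2 was at 10.76, 10.71 and 10.12 in wild-type cells and at 9.71, 9.31 and 9.66 in Scl-deleted cells. The genotypes did not overlap, and Scl-deleted array 2 was the lowest, whereas the globins were highest there. The means were 10.53 ± 0.36 and 9.56 ± 0.22 (SD, n = 3 each), a log2 fold change of -0.97 ± 0.20 (SE), 1.96-fold lower, with a 95% interval from -1.43 to -0.51, and it did not pass (limma adjusted p = 0.0687). By unadjusted p it ranked 140 of 8946 genes, the lowest of the erythroid genes. Over the alternatives the log2 fold change ran from -1.18 to -0.81 and the adjusted p from 0.00827 to 0.479, and 5 of 17 alternatives called it: the authors' normalized values (adjusted p = 0.0416), no background correction (0.0487), the prior with trend (0.0263), array weights (0.00827) and leaving out wild-type array 3 (0.0115). In that order, those settings called 124, 118, 155, 913 and 695 of the 8946 tested genes. Car1 was at 8.59, 8.77 and 9.79 in wild-type cells and at 8.53, 9.67 and 9.41 in Scl-deleted cells, with overlap and a log2 fold change of 0.16 ± 0.37 (SE), which was -0.07 when Scl-deleted array 2 was left out and 0.53 when wild-type array 3 was.

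**Figure D3:**
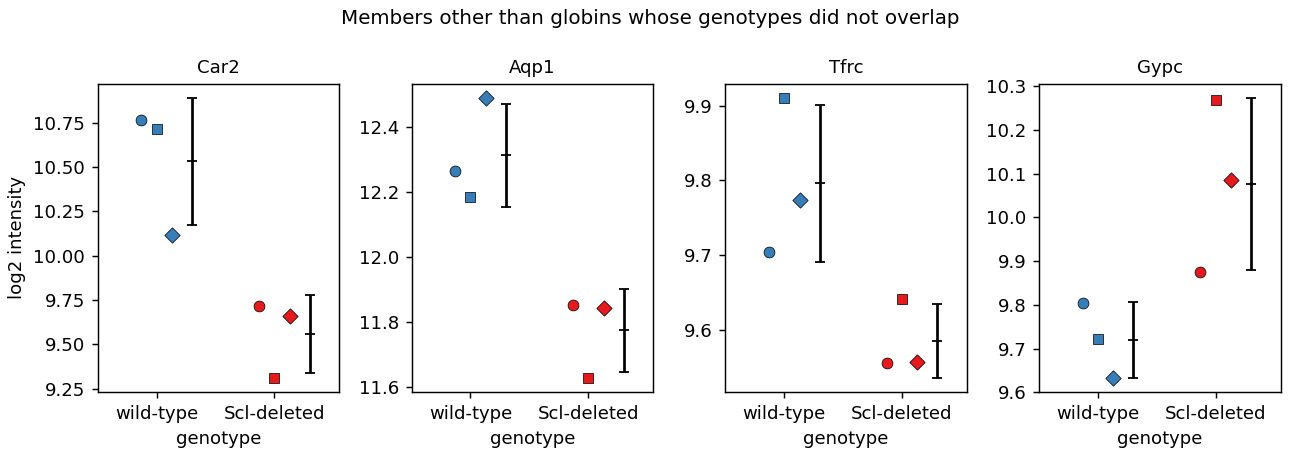
Log2 intensity (vertical axes, each with its own range) of Car2, Aqp1, Tfrc and Gypc on the wild-type (blue) and Scl-deleted (red) arrays, with the marker giving the replicate number and the bars the mean and SD of 3 arrays. Every Scl-deleted value is below every wild-type value for Car2, Aqp1 and Tfrc, and above for Gypc.

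The other red cell genes overlapped between genotypes. Blvrb, biliverdin reductase B, had a log2 fold change of 0.24 ± 0.19 (SE), and Prdx2, the peroxiredoxin abundant in red cells, had -0.21 ± 0.30 (SE), with Scl-deleted array 1 at 7.22 and the other arrays between 7.92 and 8.42. The dimmer Prdx2 probe had 0.10. Tspo2, a translocator protein of erythroid cells, and Tmcc2, a coiled-coil membrane protein, had 0.24 and -0.09 from dim probes.

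Wild-type array 3 was the highest array for 9 of the 26 genes (34.6%), against 12.9% of all tested genes. Scl-deleted array 2 was the highest for 8 (30.8%), a share near the 27.6% of all tested genes. The genes highest on wild-type array 3 were Slc25a37, Ermap, Kel, Icam4, Aqp1, Epor, Tfr2, Car1 and Tmcc2, most of them genes of the membrane, receptors and enzymes, and the globins were not among them. Scl-deleted array 1 was the highest for none of the 26 and the lowest for 7, where 10.4% of all tested genes were highest and 17.5% lowest on it. On wild-type array 3 the deviation from a gene's own mean had a median of 0.22 over membrane genes and 0.44 over receptor genes, while for haem genes it lay between -0.08 and -0.01 on every array. For the globins it was -0.60, -0.91 and -0.42 on the wild-type arrays and 0.05, 1.86 and 0.02 on the Scl-deleted arrays. Of the 36 genes with a probe, 27 were detected on Scl-deleted array 2 and 23 to 26 on each other array, although that array had the fewest detected probes over the whole array design.

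**Figure D4:**
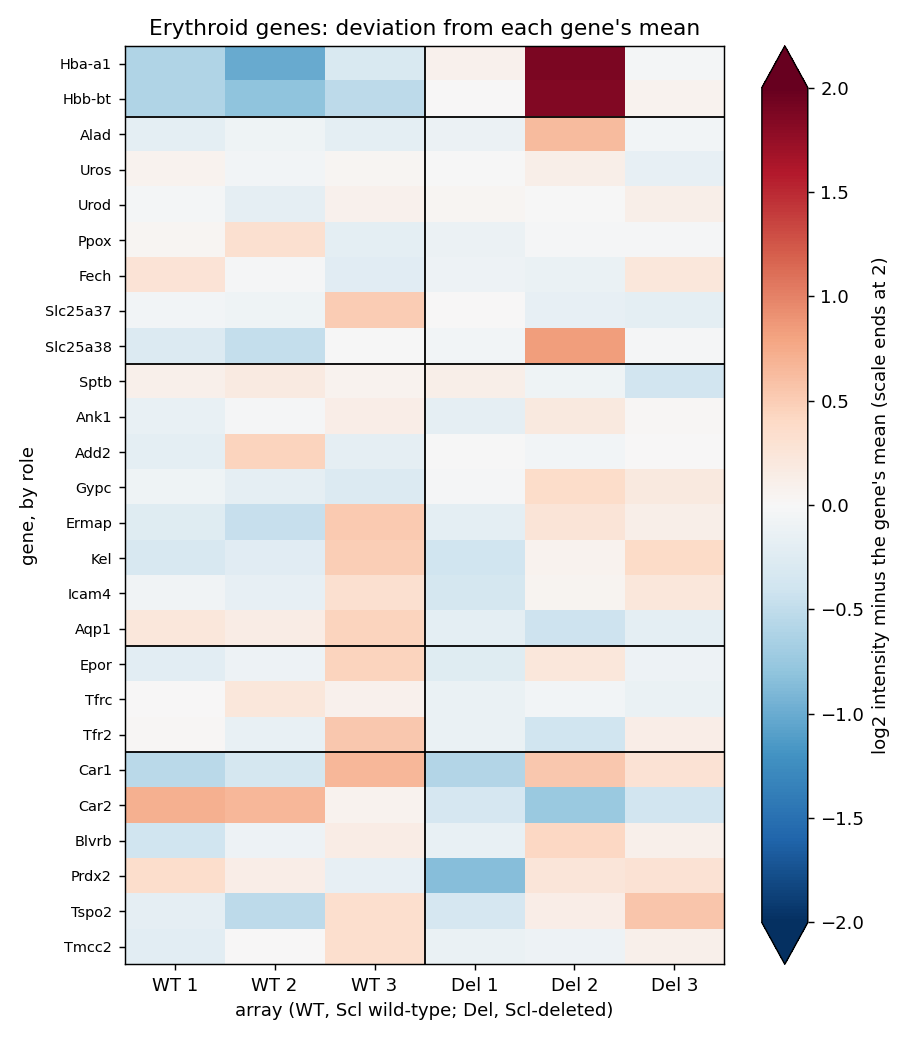
Deviation of each of the 26 tested erythroid genes (rows, by role) from its own mean on each array (columns), in log2 intensity, red for above and blue for below. The globins are high on Scl-deleted array 2 (Del 2), Alad and Slc25a38 less so, while Car2 is low there.

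Other genes of the same pathways were taken from lists of related function, chosen with earlier results of these data known. Of 13 tested genes for other steps of haem and iron handling, 5 were higher and 8 lower by mean and none passed. Hmox1, the haem-degrading oxygenase, and Alas1, the housekeeping form of the first enzyme, were lower on all 3 Scl-deleted arrays, with log2 fold changes of -0.56 and -0.30 (limma adjusted p = 0.111 and 0.286). Abcb6, a porphyrin transporter, had 0.25, and Fth1, the ferritin heavy chain, had -0.31. Of 14 further red cell membrane and enzyme genes, Cd59a fell and 13 did not pass. Cd59a, which encodes an inhibitor of the terminal complement complex on blood cells, was at 9.15, 9.12 and 8.79 in wild-type cells and at 7.77, 7.83 and 8.30 in Scl-deleted cells, 2.08-fold lower, which is -1.06 ± 0.18 as a log2 fold change (SE; limma, adjusted p = 0.0352). The call of Cd59a was lost when any 1 of arrays 1 and 2 of either genotype was left out (adjusted p up to 0.170), and 9 of 17 alternatives called it, with adjusted p from 0.00905 to 0.353. Mgst3, a microsomal glutathione transferase, had 0.61 with no overlap (adjusted p = 0.134), Slc43a1, an amino acid transporter, had 0.52 and Slc2a1, the glucose transporter, had -0.34, and neither of these passed.

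Of 15 tested erythroid transcription factors and coregulators, Tal1 fell, Lyl1, its closest relative, rose 1.86-fold (limma adjusted p = 0.0453), and 13 did not pass. Bcl11a, a repressor of embryonic beta-like globins, was lower on all Scl-deleted arrays, with a log2 fold change of -0.45 (adjusted p = 0.158), while Hbb-bh1 stayed undetected as given above. Cbfa2t3, a corepressor that joins the Tal1 complex, had -0.68 with overlap (adjusted p = 0.378). Of 9 tested genes of erythropoietin signalling, Socs3, a feedback inhibitor of cytokine receptors, fell 2.78-fold, with an adjusted p of 0.0352, while the other 8 missed the threshold. Ptpn6, a phosphatase that damps the receptor, and Cish, a feedback inhibitor, had 0.36 and -0.38, each with no overlap between genotypes (adjusted p = 0.254 and 0.257), and Bcl2l1, a survival gene, had 0.56 with overlap. Leaving out wild-type array 1 or any Scl-deleted array ended the call of Socs3 (adjusted p up to 0.115), leaving out any array but wild-type array 3 ended that of Lyl1 (up to 0.209), and leaving out wild-type array 1, wild-type array 2 or Scl-deleted array 1 ended that of Tal1 (up to 0.156). Adjusted p-values over the 17 alternatives were 0.00930 to 0.323 (Socs3), 0.00845 to 0.409 (Lyl1) and 0.0109 to 0.364 (Tal1).

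Genes of other blood cells also varied between arrays. The summed level of 10 neutrophil and promyelocyte genes (log2 of the summed linear signals) was 12.74 to 13.52 on the wild-type arrays and 12.52 to 12.85 on the Scl-deleted arrays, and 8 of 10 were kept. All 8 were lower by mean with Scl deleted (4088 of all 8946 tested genes were lower), with a median log2 fold change of -0.55. None passed, and 4 had an unadjusted p under 0.05 (limma), where 16% of all tested genes did. The wild-type arrays differed among themselves. Ltf and Ngp, which were not kept, were detected on wild-type arrays 1 and 2 alone, at 7.51 and 7.14 (Ltf) and 6.46 and 6.07 (Ngp). Camp was at 8.13 and 8.08 on these arrays and between 5.94 and 6.60 on the others. S100a9 was at 7.48 and 7.51 against 5.66 to 6.19. Mpo, Elane, Ctsg and Prtn3 were instead highest on wild-type array 3. The summed level of 8 mast cell and basophil genes was 8.85 to 9.34 and 8.72 to 9.67, highest on Scl-deleted array 2, where Cpa3 and Fcer1a were at 7.83 and 8.59. Prss34, a mast cell and basophil protease, went the other way, at 7.34, 7.93 and 8.20 on the wild-type arrays and 6.81, 4.82 and 6.22 on the Scl-deleted arrays, and was not detected on Scl-deleted array 2. Mcpt8, Mcpt4 and Tpsab1 were detected on no array. For 6 lymphocyte genes the summed level was 10.01 to 10.06 and 10.06 to 10.30, with Cd79a, Cd3e and Cd3g at background. The 3 kept, Cd79b, Ebf1 and Vpreb1, were higher by mean with Scl deleted, and none passed. Vpreb1 was at 5.67, 5.83 and 5.88 on the wild-type arrays and 6.44, 7.09 and 6.42 on the Scl-deleted arrays. Its log2 fold change was 0.86 (limma adjusted p = 0.0962). For 5 macrophage genes the summed level was 7.25 to 7.56 and 7.29 to 7.43, with 4 of the 5 at background. The summed level of 11 megakaryocyte genes was 15.54 to 15.61 and 15.18 to 15.49. Of the 10 kept, 8 were lower and 2 higher by mean with Scl deleted, and 1 passed. That was Selp, 3.16-fold lower (limma adjusted p = 0.00821). The part of these differences in the erythroid values was not tested.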

How the data were processed

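Per the labels' protocols, amplified and biotin-labelled total RNA was run on Illumina mouse bead arrays. The table deposited without normalization gives log2 signals that are not scaled between arrays, as its values show. Beside each signal it gives a detection score; its header calls this a p-value, but the deposited score rises with the signal (lowest rank correlation 0.997), so 1 minus the score was used. In the authors' normalized table the log2 values have equal distributions on all arrays. The submitters' processing notes name limma; no further step is given in the sources used here.

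Linear signals went through neqc (limma 3.58.1, R 4.3.3), which models background through the detection p-values, uses an offset of 16 and equalises the arrays by quantiles. This makes fold changes of dim probes larger, and a shift shared by most genes would not be seen. In the platform annotation 29976 probes have 1 gene symbol, 10 have several and 16646 have none and stay unnamed; symbols were looked up in RefSeq GRCm38.p6. Each gene was represented by its kept probe with the highest mean. Genotypes, read from the sample titles, were compared by lmFit and eBayes (two-sided tests, Benjamini-Hochberg adjusted over all 8946 genes, threshold 0.05), and further probes of a gene by the same fit over all 16122 kept probes. The fit was checked on simulated data. The 39 genes, their grouping by role and the other lists were chosen with earlier results of these data known. The text names all 39 genes, and from each other list of red cell genes those that passed and the 4 with the smallest p, with Tal1, Xist and a few markers. Motifs were counted in the 250 bases before the start, not in the planned windows of 300 bases, which reach past it. No batch, chip or scan date was found in the labels or headers. The number of arrays limits the precision.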

Additional observations from a re-analysis of the deposited data

How the results depend on the processing

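There were 17 alternatives, and no erythroid gene was called in the comparison as reported. The number called was 1 with the authors' normalized values and with no background correction (Car2 in each), 2 with the trend and robust prior and with array weights (Car2 and Aqp1 in each), and 0 to 1 with 1 array left out (Car2 without wild-type array 3). Over all tested genes the number called was 110 as reported, 124 with the authors' normalized values, 118 with no background correction and 155 with the trend and robust prior. It was 27 with no detection filter, 69 with the stricter filter (detection p under 0.01 on all 6 arrays) and 73 probes with every probe tested. With array weights it was 913 of 8946, and with the Xist level as a covariate 2. With 1 array left out it was 16 to 695, lowest without wild-type array 2 and highest without wild-type array 3. With the replicate number as a block 50 genes and 0 erythroid genes were called. Between same-numbered arrays the correlations of deviations from the group means were 0.11, -0.27 and -0.18. The labels give no pairing, and with 3 arrays per group these correlations cannot decide whether there was one.

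The median log2 fold change of the haem genes, -0.01 as reported, was -0.053 with median scaling, 0.060 with no detection filter, 0.025 with the stricter filter, -0.061 with array weights, 0.11 with the Xist covariate and between -0.028 and 0.090 with 1 array left out. That of the receptor genes was 0.032 with probes of a gene averaged, and that of all erythroid genes lay between -0.083 and 0.10 with 1 array left out. The globin median ran from 0.67 to 1.60 with 1 array left out.

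The direction changed in 31 of 436 values, over 13 genes, none of them called in either setting. With median scaling Ank1 was at -0.027 and Kel at -0.0011. With array weights, Icam4 was at 0.095, Epor at 0.034 and Tmcc2 at 0.060. With probes averaged Epor was at 0.032 and Tfr2 at 0.084, and with the Xist covariate Fech was at 0.22, Add2 at 0.039, Icam4 at 0.096 and Prdx2 at 0.22. With 1 array left out the log2 fold change ran from -0.13 to 0.12 for Fech, -0.065 to 0.13 for Ank1, -0.15 to 0.29 for Kel, -0.075 to 0.53 for Car1, -0.24 to 0.022 for Ppox, -0.16 to 0.16 for Add2 and -0.078 to 0.41 for Ermap. It ran from -0.18 to 0.11 for Icam4, -0.22 to 0.11 for Epor, -0.22 to 0.058 for Tmcc2, -0.41 to 0.16 for Prdx2 and -0.10 to 0.035 for Uros. Except for leave-outs and filters, which change the arrays or probes used, the cause was not tested.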
